A study of Mus musculus with 3 samples.

Results

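The genes described here are 10 genes of NRF2, a transcription factor of the oxidant response, and of the antioxidant enzymes tied to it: Nfe2l2, Keap1, Nqo1, Gclc, Gclm, Txnrd1, Txn1, Srxn1, Prdx1 and Sod1. They were named in advance of this description, though with earlier results of these data known. They were found by their symbol in the deposited gene tables, where all 10 were present among 31510 genes. The tables come from pooled blastocysts of CD-1 mice in delayed implantation, a state in which the embryo rests in the uterus until estrogen returns. All mothers were 2 months old, were ovariectomized on day 4 of pregnancy and received progesterone, 2 mg per mouse and day, from day 5 to day 7. Dormant blastocysts were flushed on day 8 under progesterone, reactivating blastocysts were taken 6 h after an injection of E2, the estrogen, on day 7, and reactivated blastocysts 12 h after it. Each state is 1 library of more than 3000 blastocysts, so no value below has a replicate, no test across samples was possible, and time of collection cannot be told apart from state.

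Nfe2l2 encodes NRF2, and Keap1 encodes the sensor that in unstressed cells hands NRF2 to a CUL3 ubiquitin ligase for breakdown. Oxidants and electrophiles modify cysteines of KEAP1, NRF2 then accumulates, pairs with small MAF proteins and binds the antioxidant response element, whose core is TGACNNNGC. Its classical targets make glutathione (Gclc and Gclm), reduce quinones (Nqo1) and keep thioredoxin and peroxiredoxins reduced (Txnrd1, Txn1, Prdx1 and Srxn1). Sod1 turns superoxide into hydrogen peroxide. Glutathione is a main redox buffer of the preimplantation embryo.

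The element was looked for, on both strands, in RefSeq promoter windows (GRCm38.p6) of 300 bases, 250 before and 50 after each start site. Of the 10 genes, 9 had a window, and 6 of these held TGACNNNGC, against 14.0% of the 27025 genes in the table and 12.4% of its 32851 windows. A related form, TGAGNNNGC, was in windows of 2 of the 9 genes, Srxn1 and Prdx1, which also held the first, and of 19.8% of all genes. The stretches below hold 1 match upstream of a start for each of the 6 genes. The match shown is to TGACNNNGC except in Srxn1, where it is to the related form TGAGNNNGC. At least 1 of the 2 forms was in windows of 6 of the 9 genes and of 30.8% of all genes. The stretches are shown as examples of such matches, which many other genes also hold. Each is read 5′ to 3′ on the gene's own strand with the match in capitals. A match written from GC to TCA is the element read on the other strand.
Nfe2l2, chr2:75704879-75704913, minus strand: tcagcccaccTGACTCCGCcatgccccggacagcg
Gclm, chr3:122245407-122245447, plus strand: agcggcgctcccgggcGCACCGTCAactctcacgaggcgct
Txnrd1, chr10:82859098-82859138, plus strand: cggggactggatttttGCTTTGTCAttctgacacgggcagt
Prdx1, chr4:116685450-116685490, plus strand: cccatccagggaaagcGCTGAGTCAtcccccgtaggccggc
Sod1, chr16:90220690-90220730, plus strand: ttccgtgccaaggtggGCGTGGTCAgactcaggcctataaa
Srxn1, chr2:152105463-152105503, plus strand: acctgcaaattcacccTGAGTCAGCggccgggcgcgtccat

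The match of Prdx1 starts 133 bases before its start site and reads TGACTCAGC on the other strand, and that of Srxn1 starts 45 bases before its start and reads TGAGTCAGC. Srxn1 had a further TGAGNNNGC match 158 bases before its start and a TGACNNNGC match after it, and Prdx1 a TGAGNNNGC match after its start. The matches of Gclm, Txnrd1 and Sod1 begin 134, 92 and 56 bases before their starts, and that of Nfe2l2 240 bases before. Txnrd1 has several start sites in the table, and the match lies in 1 of its 3 windows. The windows of Keap1, Nqo1 and Txn1 held neither form in these letters. Sequence outside the windows was not searched, so these genes may have matches further away. No binding was measured, so the matches describe sequence only.

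The libraries held 9298675 exon reads in the dormant, 10364607 in the reactivating and 12941447 in the reactivated state. Levels are given as the authors' deposited RPKM, exon reads scaled to exon length in kilobases and to the size of the library, with an exact 95% Poisson interval in brackets that covers counting error only. For a gene with 1 kb of exon, the limit that a count of 0 allows, 3 reads, is 0.212 RPKM in the dormant and 0.158 RPKM in the reactivated library. All 11 markers of the blastocyst's lineages were at 1 RPKM or more in every library. The 5 trophectoderm markers summed to 1074, 1075 and 834 RPKM in the dormant, reactivating and reactivated library, mostly Krt18, and moved apart: Cdx2 was at 112.57, 95.8 and 34.8 RPKM and Elf5 at 30.1, 30.5 and 81.3 RPKM. The 3 epiblast markers summed to 116, 163 and 155 RPKM and the 3 of primitive endoderm to 46.4, 41.9 and 34.4 RPKM. Of 5 red cell markers none reached 1 RPKM. The 6 immune cell markers summed to 17.97, 15.6 and 5.03 RPKM in the same order, mostly Laptm5, with Ptprc at 0.27 RPKM or less. The 5 uterine epithelial markers summed to 35.96, 38.7 and 19.5 RPKM, mostly Wfdc2 at 30.1, 32.7 and 13.4 RPKM, whereas Foxa2 was at 1.82, 1.84 and 3.60 RPKM and Ltf at 0.28, 0.91 and 0.94 RPKM. The 4 stromal markers summed to 3.58, 2.59 and 1.04 RPKM. The sums of the immune, epithelial and stromal markers were lowest 12 h after E2, though not each of their genes. The part of these lineages and cell types in the results below was not tested.

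All 10 genes were at a higher level 12 h after E2 than in dormant blastocysts, where 45.1% of all tested genes were, although the ratio intervals of Txn1 and Nqo1 held 1. Of the 10, Txnrd1 and Gclm were higher by enough to count as a rise, as were 5.27% of all tested genes. At 6 h none had risen or fallen by that measure. A gene counted as risen or fallen when log2((RPKM + 1)/(RPKM + 1)) between 2 libraries was at least 1 in size, that is 2 times, and the higher of the libraries had 1 RPKM or more. The added 1 understates the change of low genes. In bulk RNA, a change in the level per cell and a change in the number of cells of a type cannot be told apart. The plot of levels by state shows the 10 genes side by side.

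**Figure D1:**
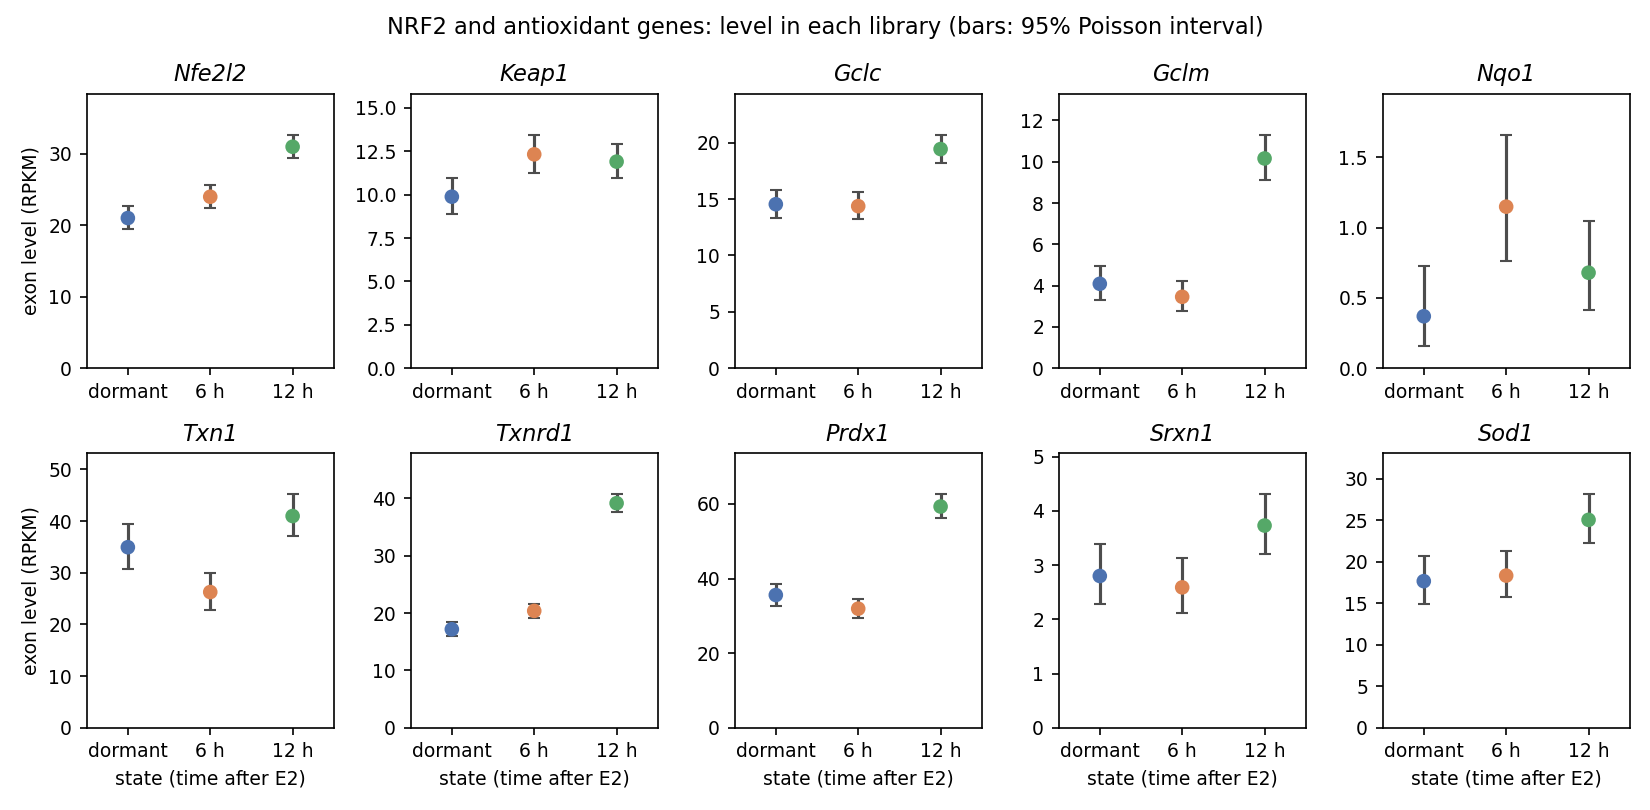
Level of each gene (RPKM, linear axis from 0) in dormant blastocysts and 6 h and 12 h after E2, with 1 library per point and 95% Poisson intervals as bars. Gclm and Txnrd1 stand at 10.2 and 39.2 RPKM at 12 h, above both earlier libraries, while Nqo1 does not exceed 1.15 RPKM.

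The regulators were present in every library and neither passed the size rule. In the dormant library, where 11497 genes were at 1 RPKM or more, Nfe2l2 had rank 2070 and Keap1 rank 4432. Nfe2l2 (ENSMUSG00000015839, GRCm38 chromosome 2, 75675513 to 75704641, minus strand) had 21 RPKM (19.5 to 22.6) in the dormant library, 24.0 (22.4 to 25.6) at 6 h and 31.0 (29.4 to 32.7) at 12 h. The reactivated library was the highest, and its interval did not meet those of the other 2. As a ratio of exon reads per library total, reactivated to dormant, Nfe2l2 stood at 1.47 (exact interval 1.35 to 1.62), a log2 difference of 0.54. Keap1 (ENSMUSG00000003308, chromosome 9, 21229730 to 21239361, minus strand) was at 9.88 RPKM (8.89 to 10.96), 12.3 (11.3 to 13.4) and 11.9 (10.95 to 12.9). Its lowest library was the dormant one, whose interval just overlapped that of the reactivated one, and the intervals of the later libraries overlapped each other. The ratio of reactivated to dormant was 1.20 (1.05 to 1.38). The RPKM of Nfe2l2 was above that of its inhibitor in every library.

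Glutathione synthesis begins with glutamate-cysteine ligase, whose catalytic subunit is Gclc and whose modifier subunit, Gclm, makes the enzyme more efficient. Gclm (ENSMUSG00000028124, chromosome 3, 122245557 to 122270732, plus strand) was at 4.09 RPKM (3.33 to 4.97, 100 exon reads) in dormant blastocysts, 3.46 (2.80 to 4.23, 94 reads) 6 h after E2 and 10.2 (9.10 to 11.3, 334 reads) 12 h after it. The first 2 libraries overlapped and the last stood above both. Gclm rose from dormant to reactivated by 1.13 on the log2 scale, a ratio of 2.48 (1.98 to 3.14), and from reactivating to reactivated by 1.32, a ratio of 2.94 (2.33 to 3.73). Gclc (ENSMUSG00000032350, chromosome 9, 77754535 to 77794485, plus strand) was at 14.5 RPKM (13.3 to 15.8), 14.4 (13.2 to 15.6) and 19.4 (18.2 to 20.7). It had the same order of libraries with a smaller difference, 0.39 on the log2 scale and a ratio of 1.34 (1.20 to 1.49) from dormant to reactivated, and did not pass. Per kilobase, Gclc was above Gclm in every library.

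Thioredoxin (Txn1) reduces disulfides in other proteins, and the selenoenzyme thioredoxin reductase 1 (Txnrd1) recharges it with NADPH. Txnrd1 (ENSMUSG00000020250, chromosome 10, 82833951 to 82897712, plus strand) reached 17.2 RPKM (16.03 to 18.4) in the dormant library, 20.4 (19.2 to 21.6) at 6 h and 39.2 (37.7 to 40.7) at 12 h. None of its 3 intervals overlapped another, and the step between 6 h and 12 h was the greater one. Txnrd1 rose from dormant to reactivated by 1.14 on the log2 scale, a ratio of 2.28 (2.11 to 2.47). From reactivating to reactivated its difference was 0.91, under the rule, with a ratio of 1.92 (1.79 to 2.06), and with upper-quartile scaling of the libraries it was 1.01 and passed. Txn1 itself (ENSMUSG00000028367, chromosome 4, 57943373 to 57956411, minus strand) was at 34.9 RPKM (30.8 to 39.5), 26.3 (22.9 to 30.0) and 41.0 (37.1 to 45.2). Its reactivating library was the lowest, with a ratio to dormant of 0.752 (0.624 to 0.905), and its dormant and reactivated intervals overlapped.

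Peroxiredoxin 1 (Prdx1) breaks down hydrogen peroxide with electrons from thioredoxin, and sulfiredoxin (Srxn1) repairs peroxiredoxins whose cysteine has been overoxidised. Prdx1 (ENSMUSG00000028691, chromosome 4, 116685544 to 116700822, plus strand) was at 35.6 RPKM (32.8 to 38.6), 31.9 (29.4 to 34.6) and 59.3 (56.2 to 62.6) in the 3 states. It was the highest of the 10 genes in each library, although its interval overlapped that of Txn1 in the dormant and reactivating ones. Its log2 difference was 0.72 from dormant to reactivated, a ratio of 1.67 (1.51 to 1.84), and 0.87 from reactivating to reactivated, both under the rule. Srxn1 (ENSMUSG00000032802, chromosome 2, 152105516 to 152111376, plus strand) was at 2.80 RPKM (2.29 to 3.39, 104 reads), 2.59 (2.12 to 3.13, 107 reads) and 3.73 (3.21 to 4.31, 186 reads). Its dormant and reactivated intervals overlapped, while the interval of the ratio between them, 1.33 (1.04 to 1.71), lay just above 1.

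The enzymes for superoxide and quinones were the cytosolic Sod1 and the flavoprotein Nqo1. Sod1 (ENSMUSG00000022982, chromosome 16, 90220754 to 90226329, plus strand) was at 17.7 RPKM (15.0 to 20.7), 18.4 (15.7 to 21.3) and 25.1 (22.2 to 28.2), with a log2 difference of 0.48 and a ratio of 1.42 (1.16 to 1.74) from dormant to reactivated. Nqo1 (ENSMUSG00000003849, chromosome 8, 107388225 to 107403206, minus strand), among the most used readouts of NRF2 in other tissues, had 8, 28 and 20 exon reads. Those made 0.37 RPKM (0.160 to 0.729), 1.15 (0.764 to 1.66) and 0.68 (0.415 to 1.05), the lowest of the 10 genes in every library. The reactivating library was the highest, with a ratio to dormant of 3.15 (1.40 to 7.998) but a log2 difference on RPKM + 1 of 0.65. With a pseudocount of 0.1 RPKM the difference was 1.41 and passed. Reads across exon junctions of Nqo1 numbered 0, 5 and 1, and opposite-strand reads 6, 5 and 15. Introns held 71.4%, 65.4% and 66.1% of its exon and intron reads together.

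In order of level, dormant blastocysts had Prdx1 and Txn1 first, followed by Nfe2l2, Sod1 and Txnrd1, then Gclc, Keap1, Gclm, Srxn1 and Nqo1. Neighbours in that order whose intervals overlapped were Prdx1 with Txn1, Nfe2l2 with Sod1, Sod1 with Txnrd1, and Gclm with Srxn1. In reactivated blastocysts Txnrd1 came just after Txn1, with an interval that overlapped that of Txn1 and not that of Nfe2l2 below. Keap1 and Gclm, apart in the other libraries, overlapped there. Among all genes, Txnrd1 went from rank 2564 in the dormant to 1131 in the reactivated library, and Prdx1 from 1124 to 724.

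Set against all genes, the comparison of reactivating with dormant blastocysts showed little among the 10. None of the 10 rose or fell, where 2.68% of 12126 tested genes were higher and 3.07% lower by the same rule. The log2 differences of the 10 genes ran from -0.40 (Txn1) to 0.65 (Nqo1), 5 above and 5 below 0, with a median of 0.02 against 0.06 over all tested genes. The exact interval of the exon ratio lay above 1 for 4 genes, Nfe2l2, Keap1, Nqo1 and Txnrd1, and below 1 for Txn1. Over all tested genes these shares were 28.7% above and 17% below. Nqo1 reached the minimum of 1 RPKM only through the reactivating library.

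Between dormant and reactivated blastocysts, 2 of 9 genes that reached 1 RPKM rose and none fell, where 5.27% of 12037 tested genes were higher and 7.66% lower. The tenth, Nqo1, was under the minimum in both libraries. The log2 differences of the 10 genes ran from 0.22 to 1.14 with a median of 0.44, while the median over all tested genes was -0.07 and 45.1% of them were above 0. The interval of the exon ratio lay above 1 for 8 of the 10 and below 1 for none, against 29.2% and 37.5% of tested genes. The exceptions were Txn1, at 1.17 (0.9998 to 1.38), and Nqo1, at 1.86 (0.785 to 4.88). The 10 genes were chosen with earlier results of these data known, and they are not replicates of each other, so these counts describe the 2 libraries.

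Between reactivating and reactivated blastocysts, Gclm alone rose and none fell, where 3.82% of 12065 tested genes were higher and 7.63% lower. With upper-quartile scaling the count was 2, and the split of all called genes went from 33.4% to 44.0% higher. The log2 differences ran from -0.36 (Nqo1) to 1.32 (Gclm) with a median of 0.42, against -0.13 over all tested genes. The interval of the exon ratio lay above 1 for 8 of the 10, all but Keap1 at 0.966 (0.855 to 1.09) and Nqo1 at 0.590 (0.315 to 1.09), and below 1 for none. The shares over all tested genes were 25.8% above and 41% below. The 3 comparisons share libraries, so a low reactivating value, as in Txn1, enters 2 of them. The plot of ratios between libraries sets the 3 comparisons side by side.

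**Figure D2:**
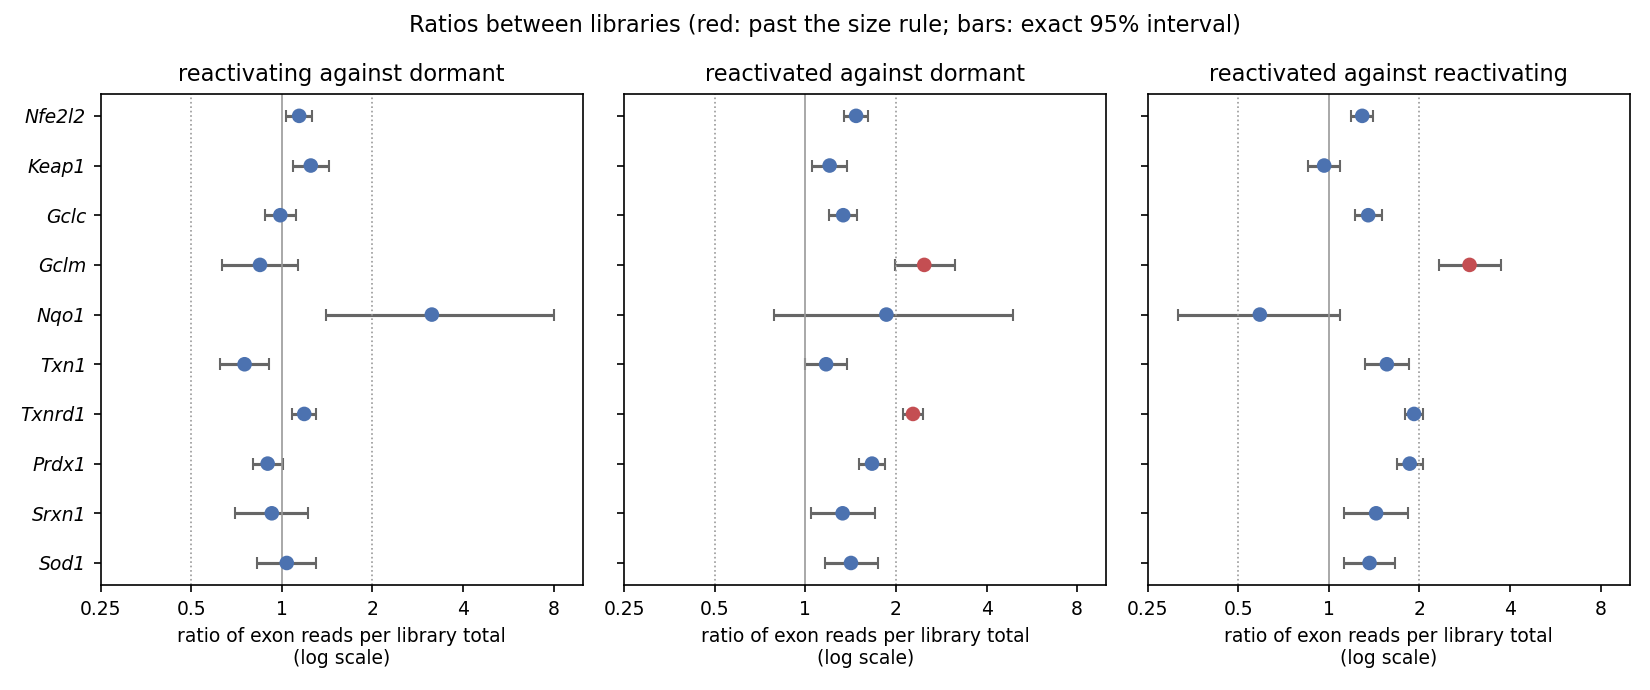
Ratio of exon reads per library total (log axis) for each gene in the 3 comparisons, with exact 95% intervals as bars, a solid line at 1 and dotted lines at 0.5 and 2. Red points passed the size rule on RPKM + 1: Gclm and Txnrd1 in reactivated against dormant and Gclm in reactivated against reactivating.

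Intron reads, which come mostly from unspliced RNA and do not enter RPKM, did not follow exon reads equally in all genes. They were scaled to the size of the library, and a gene was called with a log2 difference of at least 1 and at least 20 intron reads in the higher library. From dormant to reactivated blastocysts intron reads of Gclm went from 57 to 155, a ratio of 2.02 (1.48 to 2.79) beside 2.48 for exons. Gclm was the 1 gene called of the 9 that reached 20 intron reads, where 10.3% of 12094 tested genes were higher and 6.91% lower. Its call was close to the limit, at a log2 difference of 1.01.

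For Txnrd1 the 2 kinds of reads parted. Its intron reads numbered 283, 224 and 460, a ratio of 1.21 (1.04 to 1.41) from dormant to reactivated beside 2.28 for exons. Intron reads made up 25.4% of its exon and intron reads together in the dormant library (Wilson interval 23.0 to 28.1%), 17.0% (15.1 to 19.1%) in the reactivating and 15.3% (14.1 to 16.7%) in the reactivated one. Nfe2l2 had 359, 379 and 407 intron reads, a ratio of 0.843 (0.730 to 0.975) from dormant to reactivated beside 1.47 for exons, and its intron share went from 34.1% to 22.9%. Gclc had a ratio of 0.885 (0.755 to 1.04) in introns and 1.34 in exons, with an intron share of 35.3% in dormant and 26.6% in reactivated blastocysts. The median intron share of genes with introns at 1 RPKM or more was 25.2%, 24.1% and 23.6% in the 3 libraries. Over the reads of all genes together it was 27.7%, 25.1% and 23.5%. For Txnrd1, Nfe2l2 and Gclc the intervals of the share in dormant and reactivated blastocysts did not overlap. How their changes in share compare with those of other single genes was not tested.

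From dormant to reactivated, the intron and exon ratios of Prdx1 and of Sod1 had overlapping intervals. They were 1.40 (1.18 to 1.67) in introns and 1.67 (1.51 to 1.84) in exons for Prdx1. For Sod1 they were 1.38 (1.07 to 1.80) in introns and 1.42 (1.16 to 1.74) in exons. From reactivating to reactivated the intervals of Prdx1 were apart, at 1.35 (1.15 to 1.60) in introns and 1.86 (1.68 to 2.05) in exons. Txn1 had an intron ratio of 0.843 (0.712 to 0.999) from dormant to reactivated. More of its reads lay in introns than in exons in the dormant and reactivating libraries, 50.8% (46.5 to 55.1%) and 53.9%. In the reactivated one the share was 42.6% (39.0 to 46.3%), so that its dormant and reactivated intervals did not overlap either. Keap1 stood at 1.06 (0.783 to 1.45) in introns. Srxn1 had 8, 8 and 14 intron reads, too few for a comparison.

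From dormant to reactivating blastocysts the 1 call in introns was Nqo1, with 20, 53 and 39 intron reads in the 3 states, a ratio of 2.39 (1.40 to 4.21) at 6 h. The shares of all 11657 tested genes were 7.6% higher and 2.22% lower. Intron reads of Txnrd1 and Gclm were lower at 6 h than in dormant blastocysts, with ratios of 0.712 (0.595 to 0.852) and 0.632 (0.411 to 0.963), short of the rule. From reactivating to reactivated, Gclm was the 1 call, at a ratio of 3.20 (2.25 to 4.65), where 5.11% of 12361 tested genes were higher and 7.42% lower, and Txnrd1 stood at 1.70 (1.44 to 2.00). The plot of exon against intron ratios shows which genes lie off the line of equal ratios.

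**Figure D3:**
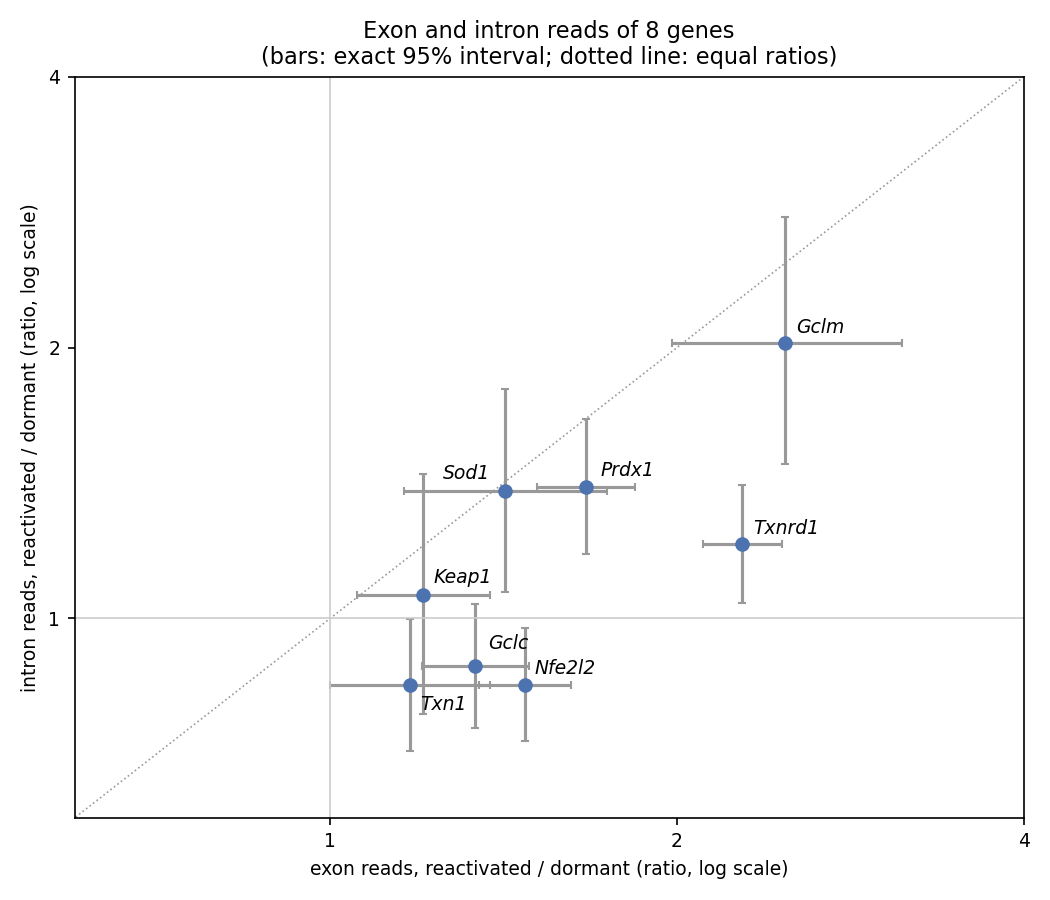
Ratio of intron reads against ratio of exon reads, reactivated to dormant (both axes log), for 8 of the 10 genes, with exact 95% intervals as bars and a dotted line of equal ratios. Gclm, Sod1 and Prdx1 lie near the line, while Txnrd1, Nfe2l2, Gclc and Txn1 lie below it, and Nqo1 and Srxn1 are left out for few reads.

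Overlapping and similar genes bear on some of these values. Processed pseudogenes at 95% identity or more over at least 100 bases exist in GENCODE M21 for 3 of the genes, Gm21399 and Gm7204 for Prdx1 (98.3% and 97.5% identical over 597 bases), Gm8566 for Sod1 (97.8% over 465 bases) and Txn-ps1 for Txn1 (95.8% over 309 bases). The levels of these 3 genes are therefore uncertain. Gm8566 was counted with 88, 92 and 150 exon reads in the 3 states beside 150, 173 and 286 for Sod1, and with both added the ratio of reactivated to dormant was 1.36 (1.16 to 1.60). Gm7204 had 75, 118 and 172 exon reads, and with these added Prdx1 had a ratio of 1.67 (1.52 to 1.83). Gclm shares 103 bases at 96.1% identity with a further transcript. An antisense gene, Gm16754, overlaps Keap1, whose opposite-strand reads numbered 9, 24 and 18. In M21, Eid3 overlaps Txnrd1 on the same strand, Gm6061 overlaps Gclm and Gm24996 overlaps Nfe2l2, so that intron reads of these 3 genes may include reads of those genes, which was not tested.

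The wider pathway was described from 6 lists with 71 further genes, all found in the tables. At 6 h none of the 66 that reached 1 RPKM rose or fell, where 2.68% of all tested genes were higher and 3.07% lower. At 12 h, against dormant, 5 of 65 rose and 3 fell, where the shares over all genes were 5.27% and 7.66%, and the median log2 difference was 0.05 against -0.07 over all tested genes. Against the reactivating library 3 of 65 rose and 2 fell, where the shares over all genes were 3.82% and 7.63%. The plot of the 6 lists shows that the other genes spread to both sides of 0, whereas the filled points lie on 1 side. The genes and lists were chosen with earlier results of these data known, so this contrast is a description and not a test.

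**Figure D4:**
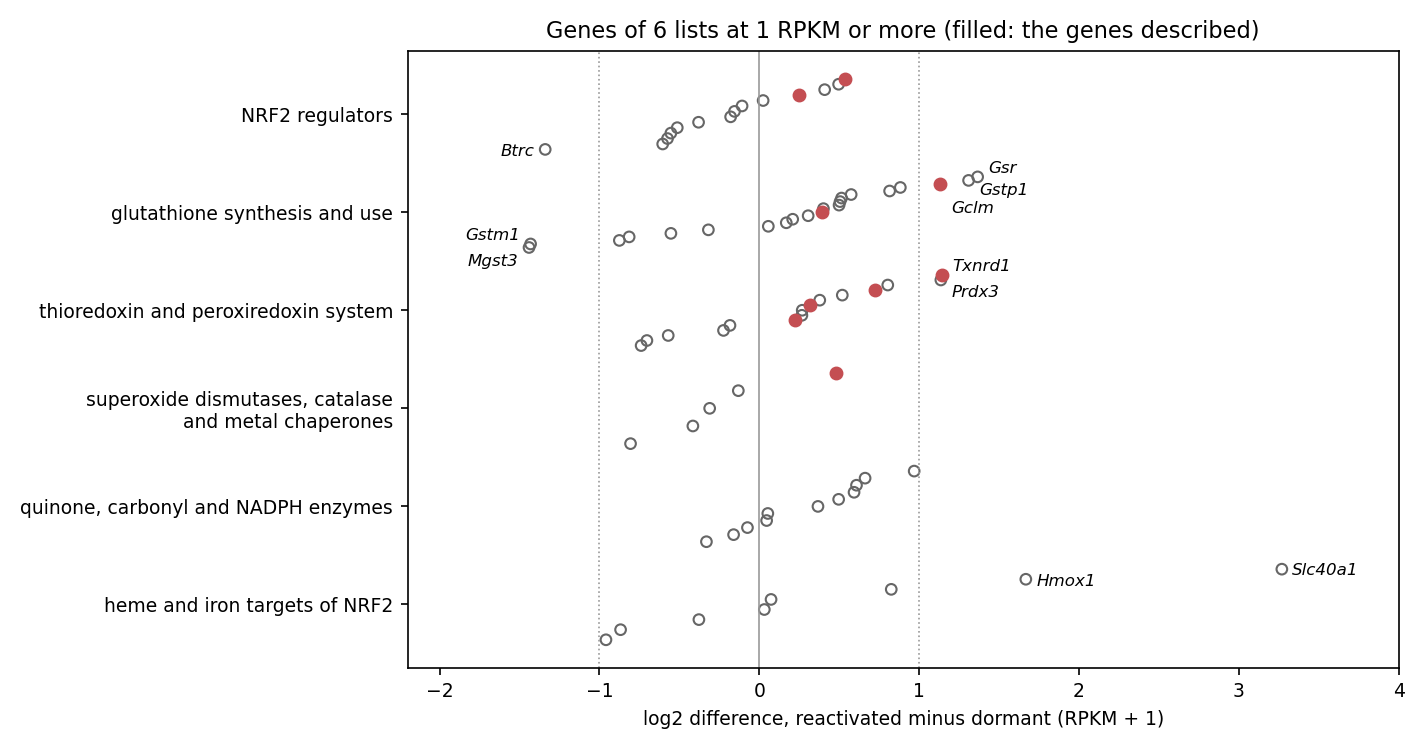
Log2 difference between reactivated and dormant blastocysts (RPKM + 1) for each gene of 6 lists with at least 1 RPKM in either library, 1 point per gene, ordered by value within a list, with dotted lines at -1 and 1. Filled points are genes among the 10 described, all between 0.22 and 1.14, and genes past the lines are named.

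Of 12 other regulators none rose and 1 fell from dormant to reactivated, where 5.27% of all tested genes were higher and 7.66% lower. Their median was -0.28 against -0.07 over all tested genes. The same shares and median over all genes stand beside the lists that follow. The gene that fell was Btrc, the substrate adaptor of another ubiquitin ligase that can mark NRF2 for breakdown, at 29.3 RPKM (27.7 to 31.0), 30.2 (28.7 to 31.8) and 10.98 (10.1 to 11.9) in the 3 states. Its dormant and reactivating libraries overlapped and the reactivated one was lower, so that it fell in both comparisons that use it. Dormant exceeded reactivated 2.67 times. Cul3, the scaffold of the KEAP1 ligase, was at 28.2, 29.4 and 28.7 RPKM. Nfe2l1, a relative of NRF2 that drives proteasome genes, was at 30.4, 33.0 and 19.65 RPKM, a log2 difference of -0.60 from dormant to reactivated.

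Among 21 further glutathione genes 2 rose and 2 fell of 19 tested, with a median of 0.31. Gsr, glutathione reductase, rose from 7.80 RPKM (6.89 to 8.81) in dormant blastocysts and 8.53 (7.62 to 9.52) at 6 h to 21.7 (20.3 to 23.1) at 12 h, and thus in both comparisons with the reactivated library. Gstp1, a glutathione S-transferase, was at 4.23 RPKM (3.09 to 5.66), 7.96 (6.43 to 9.74) and 11.96 (10.2 to 13.9), a rise of 1.31 on the log2 scale from dormant to reactivated. Mgst3, a microsomal glutathione transferase, fell from 90.4 RPKM (84.3 to 96.8) to 32.7 (29.5 to 36.0), with 47.5 at 6 h. Gstm1 fell from 5.55 to 1.43 RPKM, and belongs to a family of similar genes, so that its counts are uncertain. Similar sequences were looked for with the 10 genes only. Counts of other list genes, rising or falling, may be uncertain in the same way, which was not tested. The 2 highest genes of the list did not pass: Slc3a2, the heavy chain of amino acid exchangers, at 107, 107 and 132 RPKM, and the peroxidase Gpx1 at 112, 89.3 and 63.1 RPKM.

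Of 11 further genes of the thioredoxin and peroxiredoxin system 1 rose, Prdx3, the peroxiredoxin of mitochondria, from 12.8 RPKM (11.2 to 14.5) to 29.3 (27.2 to 31.4), with 17.45 RPKM (15.7 to 19.3) at 6 h. None of its 3 intervals overlapped another, and it rose by 1.14 on the log2 scale from dormant to reactivated. The list's median was 0.27. None of the 4 tested genes with Sod1 passed, and their median was -0.36, with all 4 below 0 where Sod1 was above it. Of these, the mitochondrial dismutase Sod2 was at 80.8, 90.6 and 73.7 RPKM and Park7 at 40.7, 36.7 and 30.3 RPKM. None of 11 tested quinone, carbonyl and NADPH genes passed. Their median was 0.37, and the highest, the pentose phosphate enzymes Tkt and Taldo1, stood at 66.6, 78.6 and 86.2 RPKM and at 59.98, 42.6 and 56.9 RPKM.

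Of 8 tested heme and iron genes 2 rose at 12 h against dormant and none fell. Of 9 tested against the reactivating library 2 rose and 1 fell, where 3.82% of all tested genes were higher and 7.63% lower. Hmox1, heme oxygenase 1 and a classical NRF2 target, stood at 26.5 RPKM (24.4 to 28.7) in dormant blastocysts, 40.7 (38.3 to 43.3) at 6 h and 86.4 (83.1 to 89.8) at 12 h. Its intervals were apart, and it rose at 12 h by 1.67 on the log2 scale against dormant and by 1.07 against reactivating. The iron exporter Slc40a1 was at 6.33 RPKM (5.63 to 7.08), 4.96 (4.38 to 5.60) and 69.65 (67.6 to 71.7), a rise of 3.27 on the log2 scale against dormant. The ferritin chains, also known targets, went the other way: Ftl1 was at 32.4 RPKM (29.1 to 36.0), 34.3 (31.0 to 37.8) and 16.2 (14.2 to 18.4), a fall of 1.04 on the log2 scale from reactivating to reactivated. Fth1 was at 69.9, 71.7 and 53.6 RPKM and did not pass. The list's median from dormant to reactivated was 0.05.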

How the data were processed

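Ribosomal RNA was depleted from total RNA of pooled blastocysts and 50 bp single-end SOLiD reads were obtained, per the labels' protocols. The authors deposited, per the file headers, read counts per gene in exons, introns, across junctions and on the opposite strand, and an RPKM per gene. Gene and exon lengths in bases are given with them. The build GRCm38 comes from the submitters' processing notes. What aligner, counting tool and annotation the authors used is not given in the sources used here. Exon reads, exon length and RPKM gave library totals of 14118723, 15687239 and 18982195 reads, with which the RPKM of all 10 genes followed within 2%.

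The 10 genes were matched by deposited symbol, and coordinates came from GENCODE M21 (GRCm38), which placed all 10 on the deposited chromosome. Deposited gene lengths differed from the M21 spans, as in Txnrd1 (38519 against 63762 bases) and Gclm (21319 against 25176 bases). The printed spans are thus not always those over which reads were counted. Overlapping genes were looked for over the M21 spans and may lie outside the counted ones. Ftl1 was taken from the row that M21 names so. Exact Poisson, exact binomial and Wilson intervals (SciPy 1.17.1) cover counting error only, as the reads carry no molecular identifiers and may repeat a molecule. Intron log2 differences had 0.5 reads added. The rules were tested on simulated data. The genes, lists and rules were chosen with earlier results of these data known. List genes were named when past the size rule in a comparison and at 5 RPKM or more in its higher library, or among the 2 highest of a list. The TGAGNNNGC form was added after the data were seen. Alternatives changed the pseudocount, minimum, scaling, unit and threshold.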

Additional observations from a re-analysis of the deposited data

How the results depend on the processing

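With 1 library per state no replicate could be left out. No paired analysis was possible because each state has a single library. The 2 rises from dormant to reactivated, Gclm and Txnrd1, held under each of the 7 alternatives, with Prdx1 as a further one at 1.5 times, and their log2 differences ran from 1.11 to 1.29 and from 1.12 to 1.18 over the 4 that change a value. From reactivating to reactivated the count of the 10 genes that rose was 1, and became 2 with upper-quartile scaling, by Txnrd1, and 4 at 1.5 times in place of 2 times. From dormant to reactivating it was 0, and became 1, Nqo1, both at 1.5 times and with a pseudocount of 0.1 RPKM. None fell under any alternative, and the calls in introns did not change with either of theirs. Of 120 recomputed log2 differences of single genes, 4 had another sign, all within 0.05 of 0: Keap1 from reactivating to reactivated and Sod1 from dormant to reactivating, each under median-ratio and upper-quartile scaling.

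Counts over all genes moved more. From dormant to reactivating, higher and lower genes numbered 957 and 798 at 1.5 times, 131 and 185 at a minimum of 5 RPKM and 617 and 598 with a pseudocount of 0.1, and 227 were lower with CPM. From dormant to reactivated they numbered 1712 and 2439 at 1.5 times and 959 and 1630 with a pseudocount of 0.1, and 1388 were lower with CPM. From reactivating to reactivated they numbered 1388 and 2550, 290 and 610, and 756 and 1618 under the same 3 settings as in the first comparison, and 1462 were lower with CPM. The smaller counts at 5 RPKM come from fewer genes tested. The greater counts at 1.5 times and with a pseudocount of 0.1 follow from the rule itself, since both settings can only add calls. For the counts with CPM the cause was not tested. Depth limits Nqo1, with 8 to 28 exon reads, and the introns of Srxn1, with 8 to 14 reads.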

Other observations

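Further genes of the lists are given here, chosen after their values were seen. The glutathione peroxidase genes Gpx4 and Gpx1 differed in direction. Gpx4, the peroxidase for membrane lipid peroxides, was at 3.98 RPKM (68 exon reads), 6.69 (127 reads) and 8.18 (188 reads) in dormant, reactivating and reactivated blastocysts, a ratio of 2.06 (1.55 to 2.76) from dormant to reactivated, while Gpx1 had a ratio of 0.565 (0.520 to 0.613). Neither passed the size rule, with log2 differences of 0.88 and -0.81. Slc7a11, the cystine importer that NRF2 is known to induce, had 6, 11 and 8 exon reads, at most 0.08 RPKM, although its partner Slc3a2 was above 106 RPKM in each library. Ugdh, which makes UDP-glucuronate, was at 7.68, 7.66 and 15.99 RPKM, a log2 difference of 0.97 from dormant to reactivated just short of the rule.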
